A study of Mus musculus with 8 samples.

Results

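Septin9 knockdown in C2C12 cells was examined in 4 of the 8 samples of the series, 2 control and 2 Septin9-deficient samples that were compared within each replicate number. C2C12 cells are an immortalised mouse myoblast line that leaves the cell cycle and fuses into myotubes when serum is withdrawn. All 4 samples come from this one line, so the replicates are separate experiments on one cell line. Control C2C12 cells received the ON-TARGETplus non-targeting siRNA and Septin9-deficient C2C12 cells received one Septin9 siRNA, each at 50 nM and at 100 nM for the first 5 h, and RNA was taken 60 h after transfection, at 12 h of differentiation. The members are the 40012 gene entries without a copy suffix among the 42391 entries of the raw count table, and 14845 of them passed the filter on low counts. The remaining 4 samples are proliferating primary myoblasts from mouse hindlimb at 48 h after transfection, 2 control and 2 Septin9-deficient, which are used only where the C2C12 changes are set beside them. The C2C12 samples held from 20898611 to 26869868 counted reads. The only measure of error was how far the knockdown difference varied between the 2 replicate pairs, with information shared across genes.

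Septins are GTP-binding proteins that assemble into heteromeric rods and filaments and associate with actin, microtubules and membranes. Septin9 is a subunit of the octameric septin rod and is known for its part in cytokinesis and in the placing of the septin cytoskeleton. A small interfering RNA acts through its guide strand, which pairs along its whole length with the target mRNA. The bases near the guide's start, the seed, can also pair with short matches in the region after the coding sequence of other mRNAs, much as a microRNA does. The sarcomere and cell cycle genes of these samples are left to counts here, and the text turns on the genes outside them.

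The siRNA target was read from the Septin9 coding sequence, because its last bases recur in other mRNAs described further on. Septin9 lies on chr11:117199661-117362325 of GRCm38 and the target on the plus strand at chr11:117356354-117356372, in a coding exon present in 5 of 5 coding transcripts of GENCODE release M21. The capitals mark the 7 bases that pair with positions 2 to 8 of the guide.
Septin9 target: ccaacggcattGACGTGTa
Septin9 had 429.7 and 441 CPM in the controls and 151 and 189 CPM after knockdown. Both Septin9-deficient samples lay below both controls. On the log2 scale Septin9 changed by -1.36 (SE 0.08, adjusted p = 5.11e-09), where SE is the standard error, and the mean CPM of the Septin9-deficient samples was 39.1% of the control mean. Of the 8 other septin genes that were tested, Septin6 rose by 0.32 on the log2 scale (adjusted p = 0.0113) and Septin1 by 0.62 (adjusted p = 0.00854), but the Septin1 gene overlaps Mylpf, so its reads are uncertain, and it was no DEG with DESeq2 and the block. Septin2, Septin5, Septin7, Septin8, Septin10 and Septin11 had log2 fold changes between -0.12 and 0.01, with adjusted p-values of at least 0.382. 

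Myoblast identity was checked with 6 marker genes. Myod1, Myf5, Des, Cdh15, Pax7 and Myog were detected in every sample, from 5.45 CPM of Myog in control replicate 1 to 693 CPM of Des in Septin9-deficient replicate 2. On the log2 scale Myog rose by 1.03 (edgeR, adjusted p = 2.28e-05), with controls at 5.45 and 38.1 CPM. Myod1 rose by 0.54, Des by 0.49 and Cdh15 by 0.38, with adjusted p-values in edgeR of at most 0.00245. Myf5 and Pax7 changed by 0.03 and 0.05, with adjusted p-values of at least 0.806. Of the markers of other cell types, all 9 endothelial and pericyte genes and 9 of 10 leukocyte genes were under the filter on low counts, and the summed level of the leukocyte list was between 2.26 and 2.79 CPM of the library size in the 4 samples. The summed fibroblast and tenocyte list, part of which myoblasts also express, held between 609.8 and 757 CPM in the controls and between 684 and 849 CPM after knockdown. Tcf4 held between 37.3% and 51.3% of this sum. Without Tcf4 the sum was 382 and 402 CPM in the controls and 376 and 413 CPM after knockdown. The summed adipocyte list held 30.6 and 31.1 CPM in the controls and 45.4 and 43.7 CPM after knockdown. Cebpa, a DEG described further on, held between 61.8% and 80.2% of that sum, 6 of its 10 markers were at 0 in every sample, and without Cebpa it was 11.7 and 8.75 CPM in the controls and 12.9 and 8.66 CPM after knockdown. The summed neuron, glia and epithelium list held 37.8 and 33.7 CPM in the controls and 29.95 and 30.2 CPM after knockdown, most of it from Tubb3, and none of its 4 tested members passed. The part of these markers in the results was not tested.

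In Septin9-deficient C2C12 cells 130 genes were upregulated DEGs and 107 were downregulated DEGs, which is 0.876% and 0.721% of the genes tested. A DEG had an adjusted p-value under 0.05 and changed at least 1.5-fold in either direction. All 237 DEGs moved in the same direction in both replicate pairs, whereas 30.9% of all tested genes were higher and 31.6% were lower in both pairs. The DEGs were called from these same pairs, so this agreement was favoured by the calling and is no separate support. Outside the lists of sarcomere, myogenic and cell cycle genes there were 106 upregulated and 102 downregulated DEGs among 14554 genes. In 80 of the 106 and in 75 of the 102 the 2 groups did not overlap, while over all tested genes the Septin9-deficient samples lay above both controls in 12.9% and below both in 12.8%. The calling favoured such separation too. In 37 of the 106 and 27 of the 102 genes the gap between the 2 controls exceeded the fold change. Since RNA was pooled from a whole culture, a change in the share of cells of a given state and a change per cell cannot be told apart. With DESeq2 and the same block there were 32 upregulated and 56 downregulated DEGs outside these lists, and without the replicate block no gene passed in edgeR, with 372 genes at an unadjusted p-value under 0.05. Of the 77 genes besides Septin9 that were named by the rule on p-values and lists, 48 were also DEGs with DESeq2 and the block, 46 with all 8 samples in one fit, 29 without replicate 1 and 46 without replicate 2.

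The replicates themselves were unlike each other. At an adjusted p-value under 0.05, 5638 of the 15814 entries tested, copies included, differed between replicates 1 and 2. On the log2 scale control replicate 2 minus control replicate 1 had a median of 0.995 over the sarcomere list. The median was -0.996 over the cell cycle list and 0.003 over all tested genes. For 82 of the 106 upregulated genes (77.4%) control replicate 2 was above control replicate 1, that is, the replicates differed in the direction of the knockdown, against 50.4% of all tested genes. For the 102 downregulated genes the corresponding number was 52 (51.0%), against 49.6% of all tested genes. Whether the replicate difference and the knockdown have anything in common was not tested.

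The 208 DEGs outside the sarcomere, myogenic and cell cycle lists were sorted by what their products do, after their values had been seen, and 149 of them were placed. Among the upregulated genes 20 encode secreted or matrix proteins, 19 receptors and their intracellular signalling partners, 9 transcription factors and histones, 8 enzymes of metabolism or of small mediators, 6 cytoskeletal and junction proteins, 5 noncoding RNAs, 4 channels and transporters and 3 proteins of retinoid handling. Among the downregulated genes 17 encode secreted or matrix proteins, 12 receptors and signalling proteins, 10 proteins of the endoplasmic reticulum, Golgi and vesicles, 10 transcription and chromatin factors, 9 cytoskeletal and junction proteins, 8 enzymes and 6 channels and transporters. Secreted and matrix genes and receptors thus stood on both sides.

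**Figure D1:**
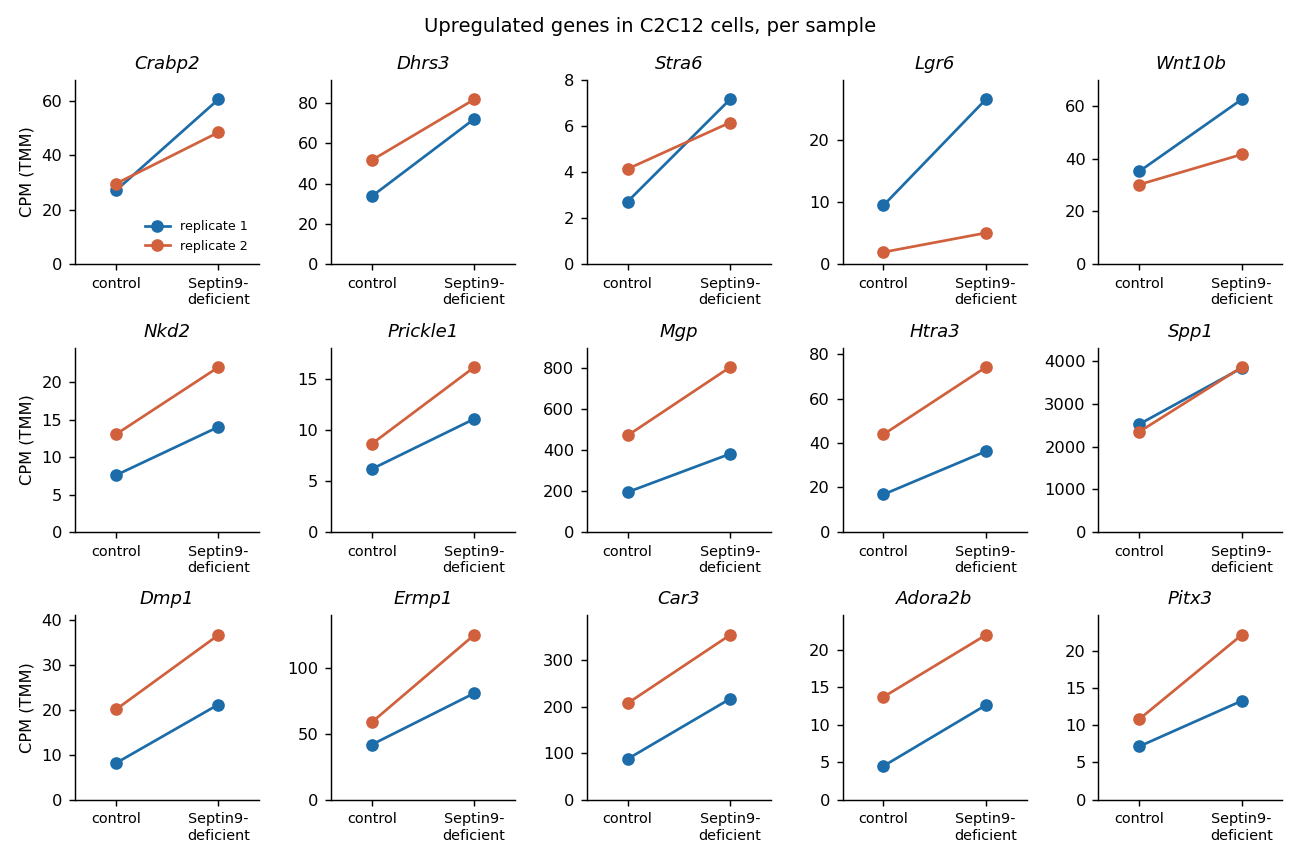
TMM-normalised CPM (y axis, from 0) of 15 upregulated genes in control and Septin9-deficient C2C12 cells, with a line joining the 2 samples of each replicate. Every line rises, and for Lgr6 replicate 1 lies far above replicate 2, while for Mgp, Htra3, Dmp1 and Car3 replicate 2 lies above replicate 1.

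Among the retinoid genes, 3 that take up, carry or reduce vitamin A compounds rose. Retinol enters cells through a membrane receptor, is oxidised through retinaldehyde to retinoic acid, and acts on nuclear receptors. Crabp2 (chr3:87948693-87953372), which carries retinoic acid to its nuclear receptors, had 60.6 and 48.5 CPM in Septin9-deficient cells, against 27.1 and 29.6 CPM in the controls, and both Septin9-deficient samples lay above both controls. The change was 0.93 (SE 0.09, adjusted p = 2.51e-06) on the log2 scale. Dhrs3 (chr4:144892534-144928209), which reduces retinaldehyde back to retinol, had 33.7 and 51.7 CPM without and 72.1 and 81.8 CPM with the knockdown, with a log2 fold change of 0.87 (SE 0.09, adjusted p = 3.47e-06). Stra6, the receptor for retinol-binding protein, was less abundant at 2.72 and 4.14 CPM in the controls and 7.16 and 6.16 CPM after knockdown and had a log2 fold change of 0.95 (SE 0.21, adjusted p = 0.00765). It was no DEG with DESeq2 and the block or with all 8 samples in one fit, and its log2 fold change was 0.56 without replicate 1 and 1.42 without replicate 2. For all 3 genes the groups did not overlap. Of the 38 tested genes of retinoid and steroid pathways these 3 were the upregulated DEGs and 1 was a downregulated DEG. Over all tested genes 0.876% and 0.721% were such DEGs. At an adjusted p-value under 0.05 with any fold 3 rose and 3 fell, where 2.61% and 4.13% of all tested genes did. The median over the list was 0.05, compared with -0.002 over all tested genes. The retinoic acid receptor Rarb, named after its values were seen, had the highest log2 fold change of the list but was under 1 CPM in every sample. It had 0.577 and 0.855 CPM in Septin9-deficient cells, against 0.239 and 0.299 CPM in the controls, and did not pass (log2 fold change 1.403, SE 0.51, adjusted p = 0.120).

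Wnt pathway genes changed at several steps. Wnt ligands bind Frizzled receptors and stabilise beta-catenin, and R-spondin receptors of the Lgr group strengthen the signal. Lgr6, an R-spondin receptor, had 9.51 and 1.94 CPM without and 26.6 and 5.05 CPM with the knockdown. Its control replicates differed by -2.24 on the log2 scale (replicate 2 minus replicate 1), and within each replicate the Septin9-deficient sample was the higher one (log2 fold change 1.45, SE 0.14, adjusted p = 3.41e-06). The ligand Wnt10b had 35.2 and 30.2 CPM in the controls and 62.4 and 41.6 CPM after knockdown, a log2 fold change of 0.65 (SE 0.08, adjusted p = 6.25e-05). Nkd2, which binds Dishevelled and dampens the signal, rose by 0.81 and Prickle1, a planar cell polarity protein, by 0.88 on the log2 scale, both without overlap of the groups. Sfrp2, a secreted protein that binds Wnt ligands, went the other way with 19.7 and 35.3 CPM in Septin9-deficient cells, against 33.5 and 66.9 CPM in the controls (log2 fold change -0.86, SE 0.08, adjusted p = 1.12e-06). Of the 51 tested Wnt genes 4 were upregulated DEGs and 1 was a downregulated DEG, compared with 0.876% and 0.721% of all tested genes. At an adjusted p-value under 0.05 with any fold 6 rose and 3 fell, where 2.61% and 4.13% of all tested genes did. The list median was 0.06 on the log2 scale.

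Several upregulated genes encode proteins of mineralised and other connective tissue matrix. Mgp, the matrix Gla protein that restrains calcification, had 194 and 471 CPM without and 381 and 803 CPM with the knockdown, with a log2 fold change of 0.87 (SE 0.07, adjusted p = 7.14e-07). Control replicate 2 was above Septin9-deficient replicate 1, so the groups overlapped although both pairs rose. The secreted serine protease Htra3 had 16.9 and 43.9 CPM in the controls and 36.2 and 74.1 CPM after knockdown (log2 fold change 0.90, SE 0.08, adjusted p = 1.55e-06), again with overlap. Dmp1, an acidic phosphoprotein best known from dentin and bone, had 21.2 and 36.7 CPM in Septin9-deficient cells, against 8.17 and 20.1 CPM in the controls, and its groups did not overlap (log2 fold change 1.07, SE 0.11, adjusted p = 4.91e-06). Spp1, or osteopontin, had 2525 and 2347 CPM without and 3837 and 3856 CPM with the knockdown and rose by 0.66 (SE 0.09, adjusted p = 0.000139) on the log2 scale. Igfbp4, which binds insulin-like growth factors, rose by 0.79. Dmp1 was the sole DEG among the 5 tested members of the osteoblast and chondrocyte marker list, whose median log2 fold change was -0.04. The summed level of that list, 13 genes in all, was 113 and 123 CPM in the controls and 123 and 145 CPM after knockdown.

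Prelp, Omd and Aspn, which are small leucine-rich proteoglycans of the collagen matrix, and 2 collagens were downregulated DEGs. Prelp had 34.0 and 77.8 CPM in the controls and 19.2 and 44.5 CPM after knockdown, with a log2 fold change of -0.81 (SE 0.07, adjusted p = 1.08e-06). Omd had 7.40 and 25.1 CPM in Septin9-deficient cells, against 10.99 and 39.9 CPM in the controls and a log2 fold change of -0.63 (SE 0.10, adjusted p = 0.000373). Aspn had a log2 fold change of -0.70 (SE 0.12, adjusted p = 0.00113), which was -0.88 without replicate 1 and -0.39 without replicate 2, and it was no DEG with DESeq2 and the block or with all 8 samples in one fit. In all 3 the gap between the controls was wider than the change after knockdown, and the groups overlapped. Col18a1, a basement membrane collagen, had 563 and 589.7 CPM without and 361 and 378 CPM with the knockdown, without overlap and with close replicates (log2 fold change -0.64, SE 0.07, adjusted p = 8.8e-06). Col6a3, a chain of the microfibrillar collagen VI, had a log2 fold change of -0.61 (SE 0.07, adjusted p = 1.59e-05), also without overlap. The list of proteoglycans and matricellular proteins thus had 3 upregulated and 3 downregulated DEGs among 47 tested genes. Its median was 0.05, with 10 higher and 7 lower at any fold. The collagen and fibrillar matrix list had 2 downregulated DEGs among 56 with a median of 0.05 and 4 higher and 4 lower at any fold. Over all tested genes 0.876% were upregulated and 0.721% downregulated DEGs, and 2.61% rose and 4.13% fell at any fold.

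Receptors coupled to G proteins, which relay hormones, lipids and peptides into the cell, held DEGs in both directions. Of 98 tested receptors and regulators of this kind 9 were upregulated and 2 were downregulated DEGs. The shares over all tested genes were 0.876% and 0.721%, and the list median was 0.07. Adora2b, a receptor for adenosine, had 4.49 and 13.7 CPM in the controls and 12.6 and 21.9 CPM after knockdown, with a log2 fold change of 0.99 (SE 0.15, adjusted p = 0.000331), and Adora1, another adenosine receptor, rose by 1.17 (SE 0.27, adjusted p = 0.0128) from 0.621 and 2.05 CPM in control. The sphingosine 1-phosphate receptor S1pr1 had 13.8 and 15.7 CPM in Septin9-deficient cells, against 8.93 and 9.40 CPM in the controls, without overlap (log2 fold change 0.69, SE 0.12, adjusted p = 0.00154). Rgs16, which speeds up the turning off of G proteins, rose by 0.81 (SE 0.19, adjusted p = 0.0128) on the log2 scale. Both bradykinin receptors, named after their values were seen, were also DEGs, Bdkrb1 at 0.98 and Bdkrb2 at 0.65, as were the protease-activated receptor F2rl2 at 1.55 and the cyclic nucleotide phosphodiesterase Pde1b at 1.92, the last with no sample above 1.78 CPM. On the other side Edn1, which encodes the peptide endothelin that acts on such receptors, had 5.64 and 3.96 CPM without and 2.45 and 1.67 CPM with the knockdown and a log2 fold change of -1.22 (SE 0.22, adjusted p = 0.00157), and the orphan receptor Mrgprf one of -0.74 (SE 0.13, adjusted p = 0.00177). Of these genes Adora2b, and none of S1pr1, Adora1, Rgs16, Edn1 and Mrgprf, was also a DEG with DESeq2 and the block. The log2 fold change of Adora2b was 0.67 without replicate 1 and 1.51 without replicate 2.

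**Figure D2:**
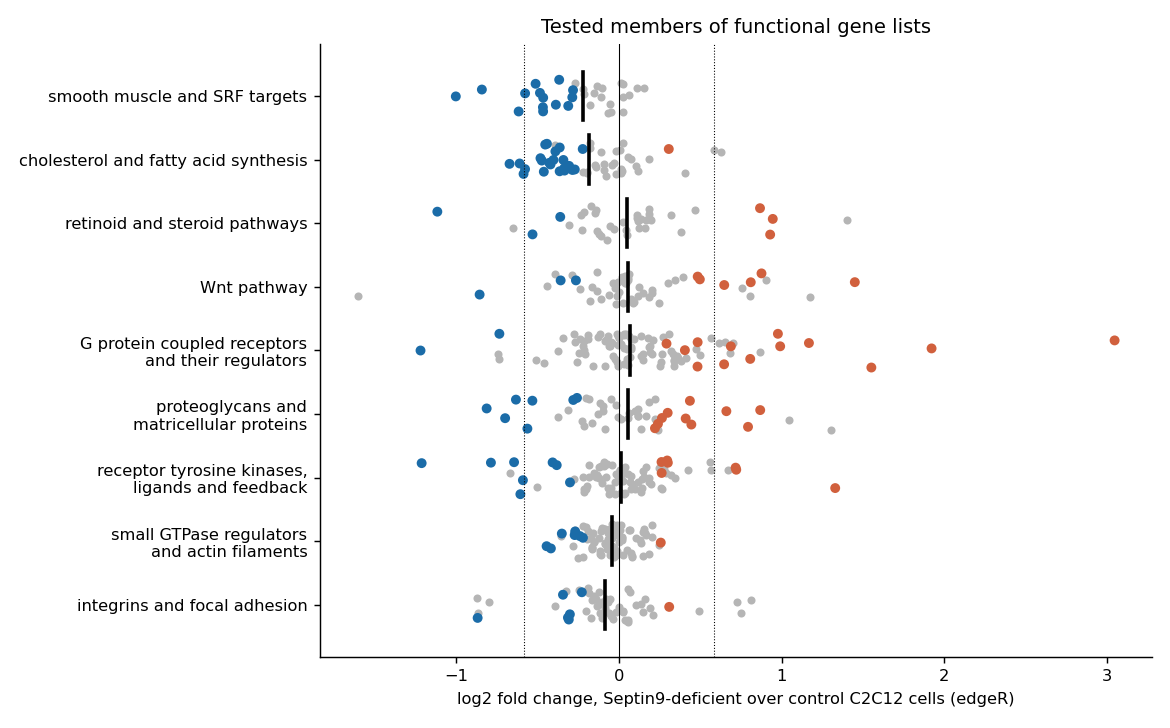
Log2 fold change of Septin9-deficient over control C2C12 cells (x axis, edgeR) for each tested member of 9 functional gene lists (rows). Coloured points had an adjusted p-value under 0.05 (orange higher, blue lower), bars mark the list medians and dotted lines the DEG limit of a 1.5-fold change. The smooth muscle row and the cholesterol and fatty acid synthesis row lean to the left, with medians of -0.22 and -0.19.

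Several other upregulated genes stood out by their small p-values. Ermp1 (chr19:29609876-29648415), a metallopeptidase of the endoplasmic reticulum, had the smallest p-value of the upregulated genes outside the sarcomere, myogenic and cell cycle lists, with 41.7 and 58.6 CPM in the controls and 80.5 and 125 CPM after knockdown. It rose by 1.02 (SE 0.07, adjusted p = 1.4e-07) on the log2 scale, and its groups did not overlap. Car3, the carbonic anhydrase of muscle and fat, had 217 and 354 CPM in Septin9-deficient cells, against 87.7 and 207 CPM in the controls (log2 fold change 1.03, SE 0.09, adjusted p = 1.05e-06). Pitx3, a homeodomain transcription factor of muscle and dopaminergic neurons, had 7.17 and 10.8 CPM without and 13.3 and 22.1 CPM with the knockdown and rose by 0.97 (SE 0.12, adjusted p = 3.45e-05). The ectonucleotidase Enpp3 rose by 0.84 and the membrane protein Igdcc4 by 0.71. Cebpa, a transcription factor best known from fat and liver, had 19.2 and 22.4 CPM in the controls and 32.6 and 34.4 CPM after knockdown, without overlap (log2 fold change 0.69, SE 0.08, adjusted p = 3.53e-05). Lpl, which releases fatty acids from lipoproteins, rose from 2.01 and 2.02 CPM in control by 0.86 (SE 0.24, adjusted p = 0.0339), while Lpin1, a phosphatidate phosphatase, was lowered to a log2 fold change of -0.65 (SE 0.12, adjusted p = 0.00177). Of the 51 tested genes of lipid storage and fatty acid oxidation these 3 were the DEGs, and neither Lpl nor Lpin1 was one with DESeq2 and the block. Over all tested genes 0.876% were upregulated and 0.721% downregulated DEGs.

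At the imprinted locus on chromosome 7, H19 had 830.0 and 1219 CPM in Septin9-deficient cells, against 349.9 and 799 CPM in the controls, with a log2 fold change of 0.92 (SE 0.11, adjusted p = 1.61e-05). The value was 0.60 without replicate 1 and 1.27 without replicate 2, and H19 was no DEG with DESeq2 and the block. Igf2, which encodes insulin-like growth factor 2, had 3.30 and 9.37 CPM without and 7.16 and 18.5 CPM with the knockdown and rose by 1.03 (SE 0.14, adjusted p = 0.000128). The entry Mir675, a microRNA encoded inside H19, rose by 0.89, but reads of the host RNA cannot be separated from it. The groups overlapped for Igf2 and did not for H19. Htra3 and Kcnq1ot1, at 0.70, were the other upregulated DEGs among 33 tested imprinted genes, of which none was a downregulated DEG. The shares of such DEGs over all tested genes were 0.876% and 0.721%. Kcnq1ot1 was no DEG with DESeq2 and the block, and it was at 0.91 without replicate 1 and 0.46 without replicate 2. The list median was 0.03. Among smaller sets, the anion channel Best1 rose by 2.26 (SE 0.41, adjusted p = 0.00192) on the log2 scale from 0.143 and 0.560 CPM in control. The cytokine Ctf1 rose by 0.74, the secreted glycoprotein Stc2 by 0.88, the transsulfuration enzyme Cbs by 1.31 and the histone gene H2ac18 by 1.03. The transcription factor Mycl rose by 0.62, the phosphatase family members Dusp27 and Dusp13 by 0.72 and 0.72, and the secreted Lgals3bp by 0.60. Of the genes of these smaller sets only Mycl and Dusp27 were also DEGs with DESeq2 and the block, and H2ac18 was at 1.34 without replicate 1 and 0.63 without replicate 2.

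**Figure D3:**
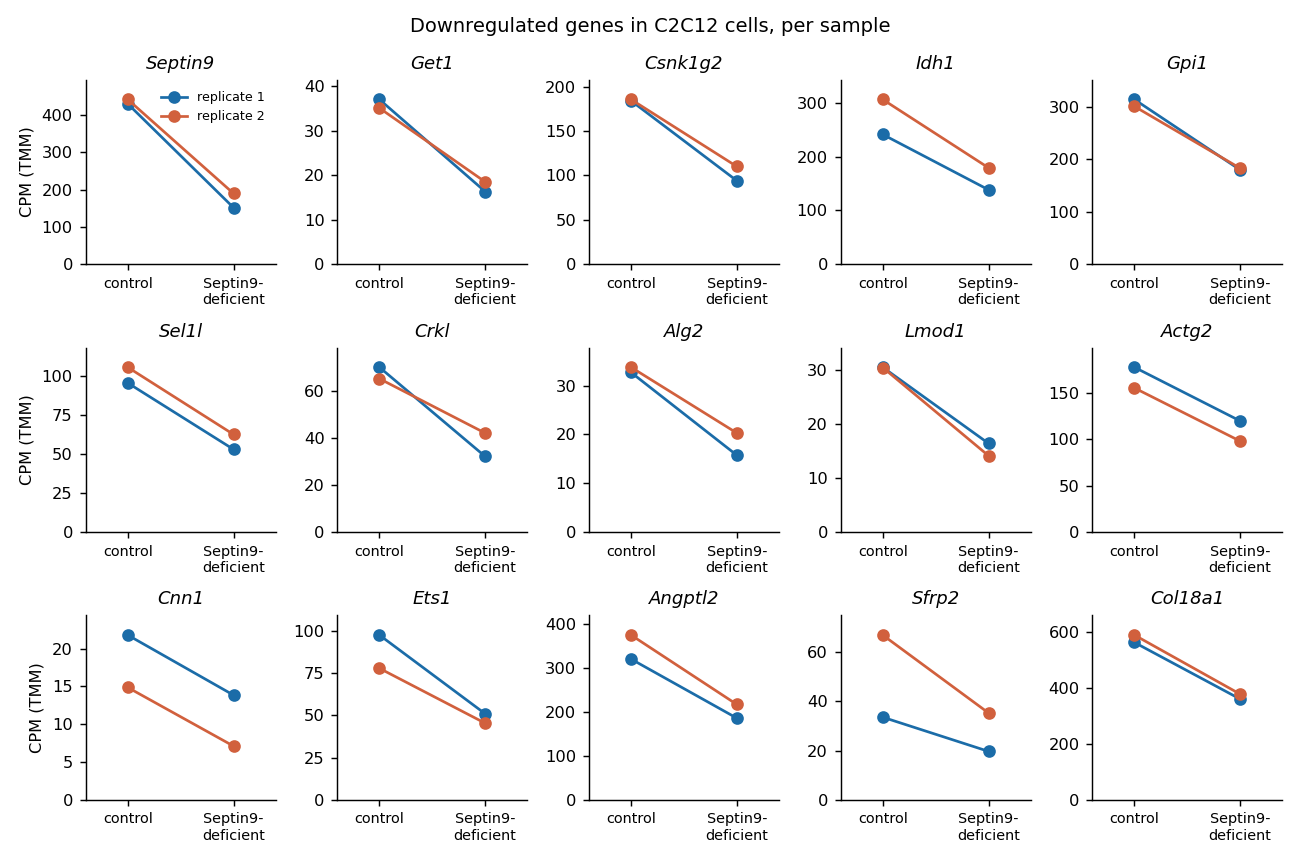
TMM-normalised CPM (y axis, from 0) of Septin9 and 14 other downregulated genes in control and Septin9-deficient C2C12 cells, with a line joining the 2 samples of each replicate. Every line falls, and for Sfrp2 alone among the 15 genes the groups overlap.

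Many of the downregulated genes carried the 7 bases of the siRNA target that face the guide's seed. The heptamer GACGTGT was looked for on the sense strand in the sequence after the coding sequence of one transcript per gene. It was present in 354 of 12229 tested genes with such a sequence (2.89%), in 25 of 93 downregulated DEGs (26.9%) and in 2 of 112 upregulated DEGs (1.79%), Septin9 left out. Outside the sarcomere, myogenic and cell cycle lists it was present in 22 of 88 downregulated DEGs (25%). Read from the heptamer, 7.06% of the 354 genes with it were downregulated DEGs, compared with 0.573% of the genes without it. At an adjusted p-value under 0.05 with any fold, 83 of the 354 genes (23.4%) fell and 4 rose. Of the genes without the heptamer 3.99% fell at that limit. In both replicate pairs 222 of the 354 (62.7%) were lower, compared with 31.6% of the genes without the heptamer. Genes with the heptamer had a median log2 fold change of -0.13, which was -0.17 in replicate pair 1 and -0.11 in pair 2, compared with 0.0003 for genes without it. Genes with the heptamer had longer sequences after the coding sequence, with a median of 2428.5 bases, than all genes with sequence (974 bases) or the downregulated DEGs (1399 bases), and the part of this length in the result was not tested. Whether the siRNA bound any of these mRNAs was not measured.

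Sites of downregulated genes that stand in the same position as the siRNA target are shown, with the heptamer in capitals and 11 bases before and 1 base after it. These genes were among the 12 with the smallest p-values, or among the named list members.
Get1: gttcatgagacGACGTGTa
Csnk1g2: tcttgctttacGACGTGTa
Sel1l: taacggctggtGACGTGTa
Crkl: aaaactcttttGACGTGTa
Idh1: aatgcatggcaGACGTGTt
Alg2: ttcatatttcaGACGTGTt
Gpi1: ggaagggctttGACGTGTc
The heptamers lie in the last exon of each gene on GRCm38, at chr16:96156469-96156475 (plus strand) in Get1, chr10:80640643-80640649 (plus) in Csnk1g2, chr12:91806142-91806148 (minus) in Sel1l, chr16:17487150-17487156 (plus) in Crkl, chr1:65158947-65158953 (minus) in Idh1, chr4:47470107-47470113 (minus) in Alg2 and chr7:34202216-34202222 (minus) in Gpi1. In Get1, Csnk1g2, Sel1l and Crkl the base that follows the heptamer is a, as in Septin9.

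These 7 genes belong to several processes. Get1 (chr16:96145400-96157852), part of the receptor that inserts tail-anchored proteins into the endoplasmic reticulum, had 37.0 and 35.0 CPM in the controls and 16.3 and 18.5 CPM after knockdown, the largest fall of the 7 with a log2 fold change of -1.05 (SE 0.09, adjusted p = 7.64e-07). Csnk1g2, a casein kinase, had 93.9 and 110.0 CPM in Septin9-deficient cells, against 184 and 185 CPM in the controls (log2 fold change -0.86, SE 0.07, adjusted p = 7.11e-07). Crkl, an adaptor of integrin and growth factor signalling, had 69.9 and 65.1 CPM without and 32.1 and 42.0 CPM with the knockdown (log2 fold change -0.87, SE 0.09, adjusted p = 6.45e-06). Sel1l, which works in the degradation of misfolded proteins, had 95.8 and 106 CPM in the controls and 53.1 and 62.7 CPM after knockdown (log2 fold change -0.80, SE 0.07, adjusted p = 8.93e-07). Alg2, a mannosyltransferase of N-glycan assembly, had a log2 fold change of -0.89, the cytosolic isocitrate dehydrogenase Idh1 of -0.79 and the glycolytic enzyme Gpi1 of -0.76. For none of the 7 did the groups overlap, and the control replicates of each differed by at most 0.34 on the log2 scale. The 10 downregulated genes of the endoplasmic reticulum, Golgi and vesicles included 6 with the heptamer. Rab31, a small GTPase of vesicle traffic with 147 and 156 CPM in Septin9-deficient cells, against 241 and 249.99 CPM in the controls (log2 fold change -0.70, SE 0.07, adjusted p = 1.72e-06), and the proton pump subunit Atp6v1a (log2 fold change -0.63, SE 0.07, adjusted p = 8.77e-06) were among those of this group without it.

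Many genes of smooth muscle and targets of serum response factor fell. These genes encode actins of contractile non-striated cells and the proteins that bind them, and many are driven by serum response factor together with its actin-sensitive coactivators. Lmod1 (chr1:135324813-135368065), an actin nucleator of smooth muscle, had 30.6 and 30.5 CPM without and 16.4 and 14.2 CPM with the knockdown, with a log2 fold change of -1.003 (SE 0.09, adjusted p = 1.55e-06). Actg2, the enteric smooth muscle actin, had 178 and 155 CPM in the controls and 119.8 and 98.0 CPM after knockdown (log2 fold change -0.62, SE 0.07, adjusted p = 9.09e-06). Cnn1, or calponin, had 13.8 and 7.10 CPM in Septin9-deficient cells, against 21.8 and 14.9 CPM in the controls (log2 fold change -0.84, SE 0.12, adjusted p = 0.000222). In all 3 both Septin9-deficient samples lay below both controls. Of the 32 tested genes of this list 14 (43.8%) had an adjusted p-value under 0.05 and were lower, compared with 4.13% of all tested genes, none passed and was higher, and 25 (78.1%) were lower in both pairs, compared with 31.6%. The 14 genes ranged from -1.003 to -0.28, so most were under the limit for a DEG, and the groups did not overlap for 13 of them. Members of that group named after their values were seen include Vcl, which encodes vinculin, with 567 and 607 CPM without and 379 and 446 CPM with the knockdown (log2 fold change -0.51, SE 0.07, adjusted p = 0.000144), Tagln with 369.9 and 323 CPM in the controls and 301 and 202 CPM after knockdown (log2 fold change -0.49, SE 0.08, adjusted p = 0.000742), and Srf, the transcription factor itself, with 67.2 and 90.4 CPM in Septin9-deficient cells, against 105 and 111 CPM in the controls (log2 fold change -0.47, SE 0.08, adjusted p = 0.000976). The list median was -0.22, it was -0.17 in pair 1 and -0.23 in pair 2, and control replicate 2 differed from control replicate 1 by a median of 0.09. With all 8 samples in one fit 5 members had an adjusted p-value under 0.05 and were lower, and without replicates 1 and 2 there were 4 and 2. Neither regulators of small GTPases with actin filament genes, with 7 of 89 lower and 1 higher at any fold, nor integrin and focal adhesion genes, with 6 of 55 lower and 1 higher, had a median beyond -0.09.

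The binding motif of serum response factor, the CArG box, was looked for on both strands in RefSeq promoter windows of GRCm38, each of 300 bases and ending 50 bases after the start. A match was found in 1.69% of 11453 tested genes with a window and in 7 of 26 genes of the list, which were chosen as targets of this factor. It was found in 3 of the 12 list members that fell and in 4 of the other 14. The matches of the 3 that fell are shown with the motif in capitals, each as 30 bases on the strand of the gene.
Srf first match: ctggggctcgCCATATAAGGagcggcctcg
Srf second match: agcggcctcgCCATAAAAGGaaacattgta
Vcl: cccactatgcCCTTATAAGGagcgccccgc
Fhl1: ccttggatcaCCTAAAATGGttaagaattt
These windows lie at chr17:46556225-46556254 and chr17:46556205-46556234 (minus strand) for Srf, chr14:20929161-20929190 (plus) for Vcl and chrX:56779571-56779600 (plus) for Fhl1. The match begins 82 and 62 bases before the start of Srf, 227 before that of Vcl and 102 before that of Fhl1. Fhl1, a LIM domain protein, had 221 and 241 CPM without and 155 and 179 CPM with the knockdown (log2 fold change -0.47, SE 0.07, adjusted p = 0.000160). Of the 3 other motifs searched in these windows, the TEAD motif (GGAATG) was present in 14.5% of all genes, in 7 of the 12 list members that fell and in 4 of the other 14. The sterol regulatory element (TCACNCCAC) was present in 1.38% of all genes, in 2 of the 26 genes of the list and in 1 of 38 genes of cholesterol and fatty acid synthesis. The DR5 retinoic acid response element was present in 0.0349% of all genes, in none of the list and in 1 of 29 genes of the retinoid and steroid list. Genes of the smooth muscle list had a mean of 1.46 windows, compared with 1.28 over all genes. A match is a description of the letters and no measure of binding.

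Genes of cholesterol and fatty acid synthesis, called cholesterol genes for short, were lower as well, but by less than the replicates differed. Cells make cholesterol from acetyl-CoA through mevalonate, squalene and lanosterol, and the enzymes share control by sterol response element binding proteins. Stard4, a sterol carrier, had 101 and 48.3 CPM in the controls and 57.9 and 33.4 CPM after knockdown, with a log2 fold change of -0.67 (SE 0.08, adjusted p = 1.59e-05). Lss, the lanosterol synthase, had 84.1 and 47.6 CPM in Septin9-deficient cells, against 140.3 and 63.8 CPM in the controls (log2 fold change -0.59, SE 0.08, adjusted p = 8.97e-05). Of the 52 tested genes 22 (42.3%) fell and 1 rose at an adjusted p-value under 0.05 with any fold, compared with 4.13% and 2.61% of all tested genes. The 22 ranged from -0.67 to -0.22 and included, named after their values were seen, Cyp51 at -0.58, Mvk at -0.48, Hmgcs1 at -0.45, Idi1 at -0.39 and Sqle at -0.34. For all 22 the difference between the control replicates was larger than the fold change, and for none were the groups separate. The list median was -0.19, with -0.21 in pair 1 and -0.16 in pair 2, while control replicate 2 was below control replicate 1 by a median of -0.64. Without the replicate block no gene of any list passed, so that fit does not set these genes apart. With all 8 samples in one fit 4 list members had an adjusted p-value under 0.05 and were lower. The list median was -0.18 without replicate 1 and -0.19 without replicate 2.

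**Figure D4:**
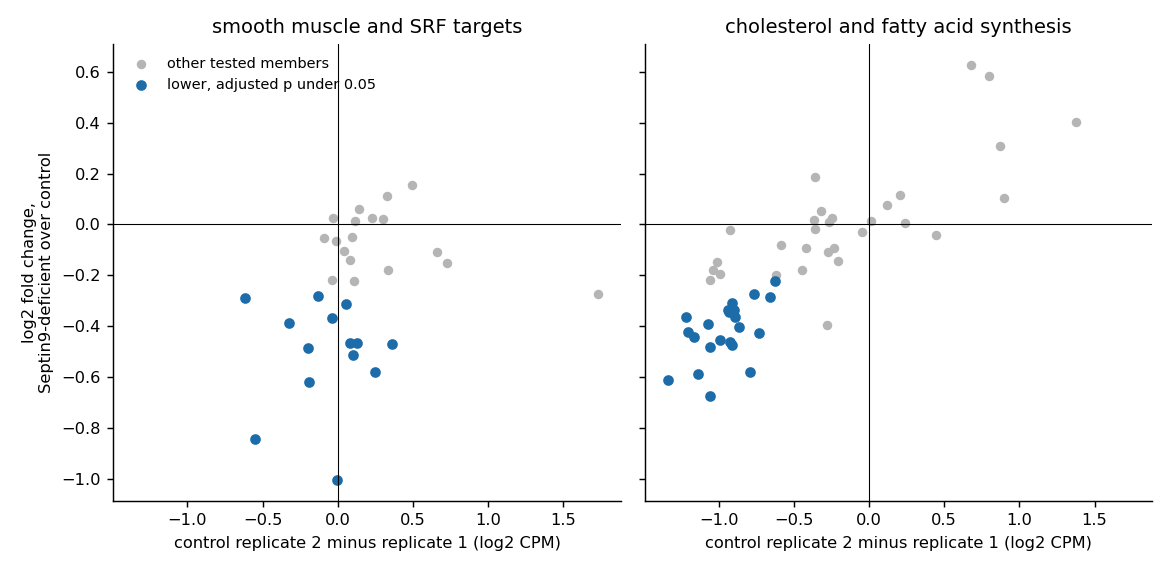
Each tested member of 2 lists by the difference between the control replicates (x axis, log2 CPM) and the log2 fold change after Septin9 knockdown (y axis, edgeR), with members that were lower at an adjusted p-value under 0.05 in blue. The blue smooth muscle genes spread around 0 on the x axis, whereas all 22 blue cholesterol and fatty acid synthesis genes lie to the left of 0.

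Further downregulated DEGs encode ligands, receptors and transcription factors, classes that also held upregulated DEGs. Ets1, a transcription factor downstream of growth factor signalling, had 97.7 and 78.0 CPM without and 51.0 and 45.4 CPM with the knockdown, without overlap (log2 fold change -0.86, SE 0.07, adjusted p = 7.11e-07). Angptl2, a secreted angiopoietin-like protein, had 321 and 375 CPM in the controls and 186 and 217 CPM after knockdown (log2 fold change -0.79, SE 0.07, adjusted p = 7.11e-07). Nrg1, the neuregulin ligand of ErbB receptors, had 37.5 and 22.1 CPM in Septin9-deficient cells, against 56.4 and 36.0 CPM in the controls (log2 fold change -0.64, SE 0.08, adjusted p = 2.28e-05), and its groups overlapped. Vegfd, a ligand of vascular endothelial growth factor receptors, had a log2 fold change of -0.61 (SE 0.11, adjusted p = 0.00175) and Tgfa, a ligand of the epidermal growth factor receptor, one of -1.21 (SE 0.35, adjusted p = 0.0411). The list of receptor tyrosine kinases, their ligands and feedback genes had 5 downregulated and 3 upregulated DEGs among 84 tested genes. At any fold 8 were lower and 7 higher, and the median was 0.02. Over all tested genes 0.721% were downregulated and 0.876% upregulated DEGs, and 4.13% fell and 2.61% rose at any fold. Gprin3, which binds G protein subunits, had, after Septin9, the smallest p-value of the downregulated genes outside these lists, with 77.4 and 129 CPM without and 42.3 and 67.3 CPM with the knockdown (log2 fold change -0.91, SE 0.07, adjusted p = 3.69e-07). Other downregulated DEGs were the chemokines Ccl2 and Cxcl1 with log2 fold changes of -0.97 and -0.69, the interferon-induced GTPase Irgm1 at -0.63, the survival factor Bcl2l1 at -0.64, the metalloprotease Adamts1 at -0.59 and the dynein chain Dync1i1 at -0.71. The guidance receptors Rtn4r and Robo2 had log2 fold changes of -1.78 and -1.52, from only 1.67 and 4.14 CPM and 1.48 and 2.16 CPM in control. Vegfd, Tgfa, Ccl2, Cxcl1, Adamts1, Dync1i1, Rtn4r and Robo2 were no DEGs with DESeq2 and the block, and Adamts1 was at -0.32 without replicate 1 and -0.87 without replicate 2.

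For 11 of the 43 lists no member was a DEG in either direction. Some of these were small, with 0 tested endothelial and pericyte genes, 1 leukocyte gene and 4 neuron, glia and epithelium genes. The fibroblast and tenocyte list and the RNA quality list held 10 tested genes each. At shares of 0.876% and 0.721% over all tested genes, so few genes would mostly hold no DEG. At an adjusted p-value under 0.05 with any fold, where 2.61% of all tested genes rose and 4.13% fell, 3 of the 47 tested Notch and Hippo genes rose and 3 fell, 6 of the 52 TGF-beta and BMP genes rose and 3 fell, 3 of the 45 genes of cadherins and junctions rose and 7 fell, and 1 of the 56 respiratory chain genes rose and 1 fell. Of the sarcomere list 16 of 61 genes were upregulated DEGs, and of 176 cell cycle genes 1 was upregulated and 4 were downregulated, with 64 lower at any fold. Over all tested genes 0.876% were upregulated and 0.721% downregulated DEGs. Among 10 noncoding RNA genes that can reflect RNA quality 3 rose at any fold, with a list median of 0.23. In both replicate pairs 8 of the 10 (80%) were higher and 0 were lower, compared with 30.9% and 31.6% of all tested genes. Malat1, named after its values were seen, had 479 and 637 CPM in control replicate 1 and Septin9-deficient replicate 1 and 732 and 930 CPM in those of replicate 2. The part of RNA quality in these results was not tested.

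The same siRNA was used in proliferating primary myoblasts, from separate control samples, and the C2C12 DEGs were looked up there. In primary myoblasts 2.86% of 16139 tested genes were upregulated and 0.291% were downregulated DEGs. Of the 106 upregulated C2C12 DEGs outside the sarcomere, myogenic and cell cycle lists 89 were tested there, 77 (86.5%) had the same direction and 25 (28.1%) were also upregulated DEGs. Of the 102 downregulated ones 92 were tested, Septin9 among them, 76 (82.6%) had the same direction, 18 (19.6%) were also downregulated DEGs and 3 were upregulated DEGs. Of all 14191 genes that could be compared, 61.0% had the same direction. Crabp2 and Dhrs3 were upregulated DEGs in both, at 0.85 and 1.28 in primary myoblasts, as were Car3 at 1.43 and Htra3 at 1.29. By contrast Lgr6 was at 0.03, Spp1 at -0.00, Sfrp2 at 0.02 and Adora2b at -0.03 on the log2 scale there.

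The downregulated C2C12 DEGs were also counted in primary myoblasts by whether they carried the heptamer. All 25 downregulated C2C12 DEGs with the heptamer were tested and lower in primary myoblasts, and 15 of them were DEGs there. Of the 59 tested downregulated DEGs with sequence but without the heptamer, Septin9 left out, 45 had the same direction and 5 were DEGs in the same direction. Read the other way, 15 of the 20 genes with sequence that were downregulated in both cell types carried the heptamer (75%), compared with 10 of the 64 downregulated in C2C12 cells that were tested and were no downregulated DEG in primary myoblasts (15.6%). Get1, Alg2, Crkl and Csnk1g2 had log2 fold changes of -1.01, -0.999, -0.90 and -0.70 in primary myoblasts. Of the 14 genes of the smooth muscle list that fell in C2C12 cells, 10 were lower there and 1 at an adjusted p-value under 0.05. Over the whole list of 32 genes, 2 were upregulated DEGs in primary myoblasts, Lmod1 among them, and 0 were downregulated DEGs. Of the 22 genes of cholesterol and fatty acid synthesis that fell in C2C12 cells, 16 were lower there and none passed. A difference between the cell types was tested with an interaction term. None of the 237 C2C12 DEGs had an adjusted p-value under 0.05 in this edgeR test, 69 had an unadjusted one under 0.05, and the smallest adjusted p-value was 0.056, for Lgr6.

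**Figure D5:**
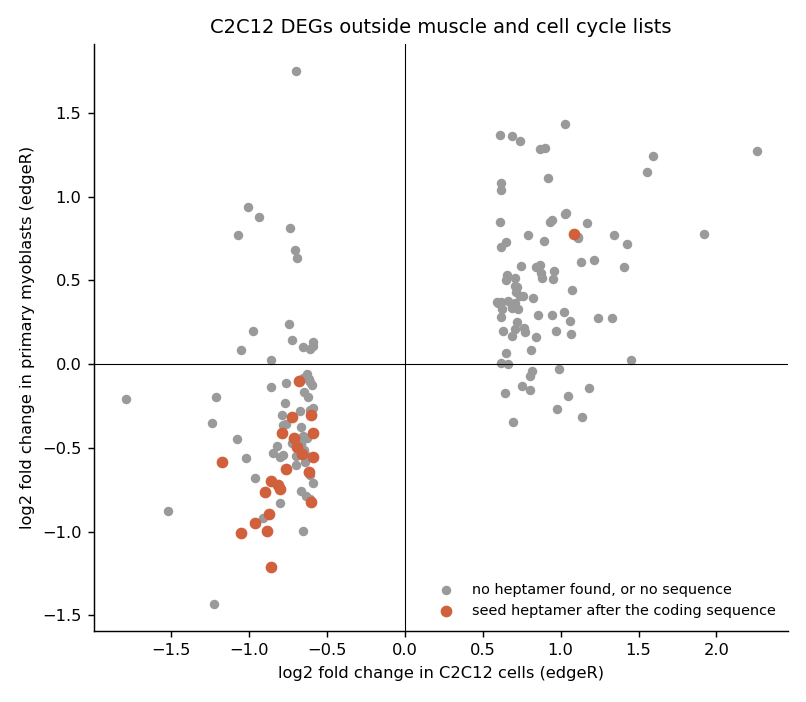
Log2 fold changes in C2C12 cells (x axis) and primary myoblasts (y axis), both from edgeR, for the 180 C2C12 DEGs outside the sarcomere, myogenic and cell cycle lists that were tested in both, Septin9 left out. The 23 genes with the seed heptamer are orange; 22 of them lie at the lower left and 1 at the upper right.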

How the data were processed

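RNA from 4 C2C12 and 4 primary myoblast samples was examined. The authors mapped paired-end reads with STAR 2.7.2, counted reads per gene with featureCounts 2.0.1 and deposited raw counts on GRCm38.p6 without normalization. For C2C12 cells the authors also deposited a normalized signal from batch-corrected counts divided by DESeq2 size factors, from which whole reads were recovered for 100.0% of values. The counting strand is not given in the sources used here. The gene names match RefSeq GRCm38.p6 for 100.0% of entries without a copy suffix. Dst, Huwe1, Mycbp2, Neb and Syne1 are not described, because they are split over 16 broken lines, which were left out.

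Samples were grouped by their labels. Raw counts of the 4 C2C12 samples were filtered with filterByExpr, which kept 15814 entries, scaled by TMM and compared with the quasi-likelihood test of edgeR 4.0.16 in R 4.3.3. The replicate number was a block, since the study's methods treat replicates as independent experiments. Samples with the same number deviated together (correlation of deviations across genes 0.68). P-values were adjusted over all entries by the Benjamini-Hochberg method. The SE is the size of the fold change over the root of its F value. CPM are TMM-normalised, and log2 ratios within pairs used a prior count of 2. Primary myoblasts were fitted in the same way, and cell types were compared by an interaction term over all 8 samples.

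The named genes are Septin9, of the DEGs with a mean of at least 1 CPM the 12 upregulated and 12 downregulated ones with the smallest p-values outside the sarcomere, myogenic and cell cycle lists, and up to 4 DEGs in each direction from every other list. The members and the 43 lists were chosen with earlier results of these data known. Entries with a copy suffix and genes in sequence repeats were not described. Some genes counted in the lists are not reported here by name. Sequences came from GENCODE M21 and RefSeq, both on GRCm38, and the heptamer was searched after the coding sequence where at least 20 bases were given. Alternatives were other scalings and filters, no block, DESeq2 1.42.0 with the block or on the batch-corrected counts, all 8 samples together, each pair left out, and no fold limit. Python 3.11.15, pandas 2.3.3 and matplotlib were used for tables and figures. The precision rests on 2 replicates per group, and counting error was not separated from their spread.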

Additional observations from a re-analysis of the deposited data

How the results depend on the processing

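The numbers of upregulated and downregulated DEGs outside the sarcomere, myogenic and cell cycle lists (106 and 102), and with these lists included (130 and 107), stayed within 1.5 times under RLE size factors, no filter, at least 10 counts in every sample and the leaving out of gene copies. With library size alone 163 genes were upregulated outside the lists. The replicate block decided the calls: without it all 4 numbers were 0, and Septin9, at -1.35 on the log2 scale, had an adjusted p-value of 0.999987, while 77 of the 77 other named genes kept their direction and lost their call. DESeq2 with the block gave 32 upregulated and 56 downregulated outside the lists and 38 and 59 in all, and DESeq2 on the batch-corrected counts gave 40 and 63, and 54 and 66. All 8 samples in one fit gave 23 and 48, and 29 and 51. With no fold limit there were 345 and 543, and 388 and 613. When each replicate pair was left out in turn, the spread then being taken from the primary myoblast pairs, so that the lone C2C12 pair is assumed to vary like those, the numbers ranged from 47 to 74 upregulated and 36 to 81 downregulated outside the lists, and from 54 to 90 and 39 to 84 in all, the lower values without replicate 1, and Septin9 from -1.48 to -1.23. Of the genes called without replicate 1, 16 upregulated and 30 downregulated ones outside the lists were DEGs of the full fit, and 45 and 49 without replicate 2. The causes of these differences were not tested. No named gene changed direction under any of these alternatives. Leaving out genes with the seed heptamer, an alternative chosen after seeing the data, left 80 downregulated DEGs outside the lists and 82 in all. The heptamer was present in between 25% and 40.4% of the downregulated DEGs with sequence under the alternatives that called any. The 14 lower smooth muscle genes became 12 with DESeq2 and the block and 4 and 2 without replicates 1 and 2, and the 22 lower cholesterol genes became 16, 0 and 3.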

Other observations

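In DESeq2 with the block, in DESeq2 on the batch-corrected counts and with all 8 samples in one fit, 18 of the 106 upregulated and 44 of the 102 downregulated DEGs outside the sarcomere, myogenic and cell cycle lists were called in all 3. Crabp2, Mgp, Car3, Htra3, Ermp1, Dmp1, Pitx3 and Lgr6 were among the former, and Get1, Csnk1g2, Sel1l, Idh1, Ets1, Angptl2, Sfrp2, Lmod1, Actg2 and Cnn1 among the latter. A mean level under 1 CPM was found in 9 of the 130 upregulated and in 2 of the 107 downregulated DEGs. Of the upregulated DEGs outside these lists 30 and of the downregulated ones 29 were not placed in any functional group, many of them predicted genes without a name.

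Lmod1, Dync1i1 and Aspn, which were downregulated DEGs in C2C12 cells, were upregulated DEGs in primary myoblasts. In the edgeR interaction test the log2 fold change of Lmod1 was higher in primary myoblasts by 1.92 (standard error 0.25, adjusted p = 0.0687), that of Dync1i1 by 1.38 (standard error 0.22, adjusted p = 0.121) and that of Aspn by 2.42 (standard error 0.38, adjusted p = 0.121). None of the 3 passed at an adjusted p-value under 0.05, as no gene did in that test.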
